A study of Homo sapiens with 6 samples.

Results

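Stretches of the human genome that carry 4 or more poly(A) sites on one strand were examined in HEK293 cells, an established human embryonic kidney cell line, by A-seq, which reads the last nucleotide of a transcript before its poly(A) tail. A unit is a run of same-strand sites in which no gap exceeds 5000 nt, and a site is a cluster of 3′ ends within 25 nt of its highest position with a mean of at least 1 count per 1000000 reads (CPM) over the 6 libraries, mitochondrial sites left out. By this rule 2851 of 28114 units held 4 or more sites, and they contained 15197 of the 49695 nuclear sites. The sites and units were chosen from the read counts of all 6 libraries pooled at equal weight, so the number, spacing and pooled level of the sites are given as a description.

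Of the libraries, 4 came from cells given CF Im25 siRNA, CF Im59 siRNA or a scrambled siRNA, or from cells without siRNA, all with RNA fragmented by alkaline hydrolysis, and 2 from cells given CF Im68 siRNA or the scrambled siRNA, both with RNA fragmented by RNase I. Cells given siRNA were harvested 3 days after its addition, the scrambled siRNA was scrambled-A in both libraries that received it, and the siRNAs were Ambion S224836 for CF Im25, Ambion S21772 for CF Im59 and a Dharmacon duplex for CF Im68. Every group held 1 library, so no p-value is given, every interval covers the counting error of reads only, and copies made by PCR can make it too narrow. How far each siRNA lowered its target was not analysed here.

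Most human genes can end at more than one poly(A) site. Cleavage factor Im, a complex of CF Im25 with either CF Im59 or CF Im68, binds nascent RNA upstream of the cleavage position, where CF Im25 contacts UGUA motifs and the larger subunits carry RS-like domains that contact other processing factors. Sites used in place of one another within the last exon change how much 3′ untranslated region a messenger RNA carries, and sites upstream of the last exon can change its coding end. A unit is defined by position alone and can join the ends of neighbouring transcripts. The coordinates are those of hg19, no annotation of that build was used, and units are therefore named by chromosome, strand and position and not by gene.

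The CF Im68 duplex is the one siRNA whose sequence the labels state. Its strand is shown because it identifies the target, with the 19 defined bases in capitals and the unspecified leading bases in lower case.
CF Im68 siRNA: nnGACCGAGAUUACAUGGAUA
In the GENCODE release 29 transcripts these bases occurred in a single gene, CPSF6 on chromosome 12, which encodes CF Im68. They were found in 7 of its transcripts, 3 of them protein-coding, and in all 3 the match lay within the coding sequence of exon 2.

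Units with 4 sites were the most frequent, with 1259 of them, followed by 662 with 5 sites, 402 with 6, 229 with 7 and 125 with 8. The median unit held 5 sites (interquartile range 4 to 6) over 3788 nt (2021.5 to 5928.5 nt, lowest 81 nt, highest 27854 nt). Neighbouring sites lay a median of 470.5 nt apart (122 to 1449 nt), against 1003 nt in units of 2 sites, and 1378 of the 12346 neighbouring pairs were under 50 nt apart. The median mean level was 44.1 CPM, against 21.5 CPM in units of 3 sites, 9.90 CPM in units of 2 and 2.21 CPM in units of 1. Each further site that passes the threshold raises the lowest level a unit can have, and its part in these medians was not tested. Of the reads in nuclear units, 39.6% to 40.8% per library were theirs.

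Reads were unevenly spread over these sites. In the pooled libraries the most used site held a median of 55.5% of the reads of its unit, and it was the first site (the most upstream one) in 469 units, an inner site in 1722 and the last site in 660. In 1546 units at least 4 sites each held 5% or more of the reads, whereas in 224 a single site did so. The fourth most used site had a median of 1.96 CPM. It lay under 1.2 CPM in 437 units, just inside the threshold, while 518 units of 3 sites would have held 4 or more at a threshold of 0.8 CPM. On the side of distance, 565 neighbouring pairs were over 4500 and up to 5000 nt apart and joined, and 504 were over 5000 and up to 5500 nt apart and not joined. A gap of over 2500 nt was present in 1241 of the units.

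Library totals were 10659900 reads for CF Im25 siRNA, 12642699 for CF Im59 siRNA, 9690883 for scrambled siRNA and 18183644 for no siRNA after alkaline hydrolysis, and 12997383 for CF Im68 siRNA and 5351980 for scrambled siRNA after RNase I. Between 2672 and 2847 of the 2851 units had at least 50 reads in a given library, and 2631 did so in all 6. The scrambled libraries of the different fragmentations differed from each other in site use: of 2649 units tested, 605 (22.8%) lay further upstream in the RNase I library and 525 (19.8%) further downstream, by 10 points of unit length or more. Each knockdown was therefore compared only within its own fragmentation: with the scrambled library and, for CF Im25 and CF Im59, also with no siRNA. For RNase I there was no further control library. The comparison between fragmentations was made in these units only, so whether units of fewer sites differ as much was not tested.

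Knockdown of CF Im25 or of CF Im68 came with 3′ ends further upstream along these units, whereas CF Im59 siRNA did not. The mean end position of a unit is the average place of its 3′ ends, weighted by reads, with 0% at the first site and 100% at the last, and its change is given in points of unit length, negative where ends moved upstream. Over the 2631 units with at least 50 reads in every library, the median of this position was 43.0% after CF Im25 siRNA and 55.8% after CF Im59 siRNA, against 51.6% after scrambled siRNA and 55.2% without siRNA. With RNase I it was 35.4% after CF Im68 siRNA and 51.1% after scrambled siRNA. The place of the ends thus differed more between either of these knockdowns and its scrambled library than between the scrambled library and cells without siRNA.

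After CF Im25 siRNA and CF Im68 siRNA the mean share of reads was lower at the last sites and higher at the first ones, while the summed share of the inner sites, in which gains and losses cancel, stayed nearly level. The first site held a mean of 20.1% of the reads after CF Im25 siRNA and 14.2% after scrambled siRNA, while the last held 19.1% after CF Im25 siRNA and 24.2% after scrambled siRNA. In the RNase I pair the first site held 24.4% after CF Im68 siRNA and 15.1% after scrambled siRNA, and the last held 14.7% after CF Im68 siRNA and 23.3% after scrambled siRNA. Inner sites together held 60.8% after CF Im25 siRNA, 59.8% after CF Im59 siRNA, 61.6% after scrambled siRNA and 60.6% without siRNA, and with RNase I 60.9% after CF Im68 siRNA and 61.6% after scrambled siRNA. After CF Im59 siRNA the first site held 13.3% and the last 26.9%, close to the 13.1% and 26.3% of cells without siRNA.

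**Figure D1:**
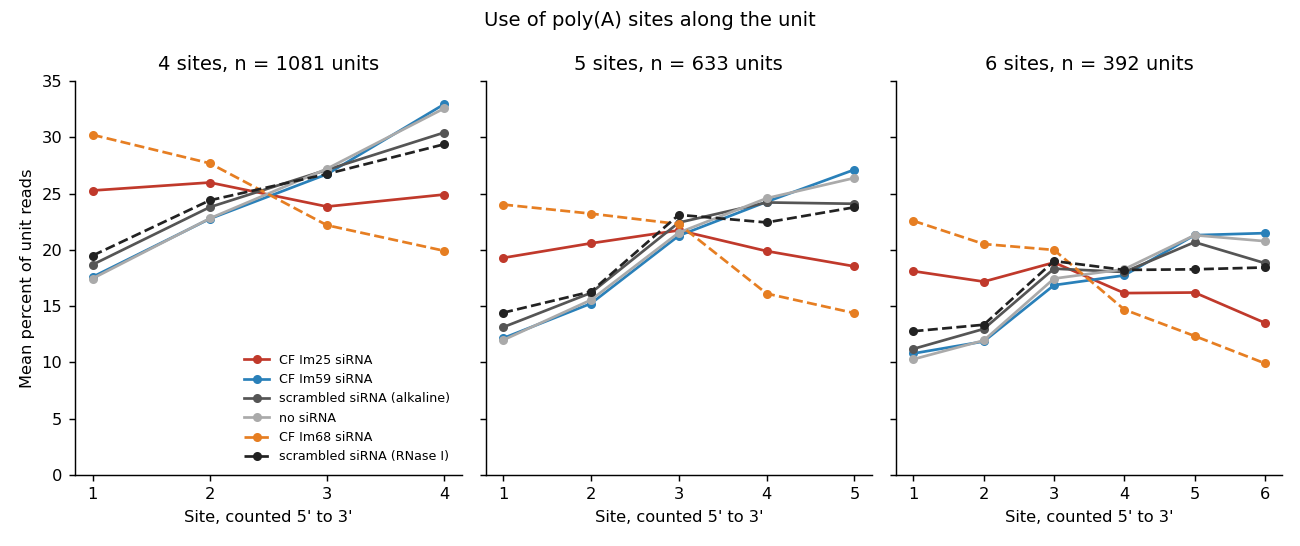
Mean percentage of the reads of a unit (y axis) at each site counted from the first (x axis), for units with 4, 5 and 6 sites that had at least 50 reads in every library; lines are libraries, dashed for RNase I. In units of 4 sites the first site held 25.3% after CF Im25 siRNA and 18.7% after scrambled siRNA, and 30.2% after CF Im68 siRNA against 19.5% after scrambled siRNA with RNase I.

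Sites before the middle of a unit gained and sites after it lost, as the plot of site use by rank shows. In units of 5 sites the mean change after CF Im25 siRNA was 6.43 points of unit reads at the first site, 4.54 at the second, −0.737 at the third, −4.51 at the fourth and −5.73 at the fifth (658 units). Each of these means stood beside an SD over units of 10.8 to 12.9 points, so single units varied widely around them. For CF Im68 siRNA the corresponding means were 9.67, 6.96, −0.844, −6.53 and −9.25 points (639 units). In units of 6 sites the mean at the third site was 0.509 points after CF Im25 siRNA and 0.987 points after CF Im68 siRNA, and at the sixth −5.44 points after CF Im25 siRNA and −8.52 points after CF Im68 siRNA. After CF Im59 siRNA the means in units of 5 sites ran from −1.16 points at the third site to 3.02 points at the fifth (656 units), and scrambled siRNA against no siRNA gave −2.27 points at the fifth site (659 units).

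A unit was called moved when its mean end position changed by at least 10 points, both libraries held at least 50 reads in it and the 95% interval of the difference excluded 0. With CF Im25 siRNA, 887 of 2813 units tested (31.5%) moved upstream and 90 (3.20%) downstream, beside 27.3% upstream and 5.38% downstream of all units with 2 or more sites under the same rule. The median change was −4.40 points, or −132 nt, with an interquartile range of −13.4 to −0.101 points. Against no siRNA in place of scrambled siRNA, 1046 of 2836 units (36.9%) moved upstream after CF Im25 siRNA and 58 (2.05%) downstream, beside 30.8% and 3.9% of all units with 2 or more sites.

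With CF Im68 siRNA, 1111 of 2667 units (41.7%) moved upstream and 83 (3.11%) downstream, beside 33.9% and 3.58% of all units with 2 or more sites. Their median change was −6.68 points, or −199 nt. Upstream moves of 40 points or more were called in 209 of the 2667 units and downstream ones in 2. Among the 6539 units with 2 or more sites tested they numbered 442 and 4. The units called upstream had a median change of −23.5 points, or −800 nt, after CF Im68 siRNA and −19.2 points, or −611 nt, after CF Im25 siRNA. Because the knockdowns differ in fragmentation and in their control library, these medians are given side by side and the difference between the knockdowns was not tested.

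Without a targeting siRNA the calls were fewer. Scrambled siRNA against no siRNA gave 213 of 2822 units upstream (7.55%) and 52 downstream (1.84%), beside 8.35% and 3.77% of all units with 2 or more sites, with a median change of −1.16 points. These shares are the size of differences that this rule finds between a pair of alkaline libraries without a knockdown. When sites and units were called on the 3 control libraries alone, so that a site used after knockdown could not help a unit to be chosen, 28.3% of units moved upstream after CF Im25 siRNA and 37.4% with CF Im68 siRNA, beside 24.8% and 30.6% of all units with 2 or more sites called in that way.

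**Figure D2:**
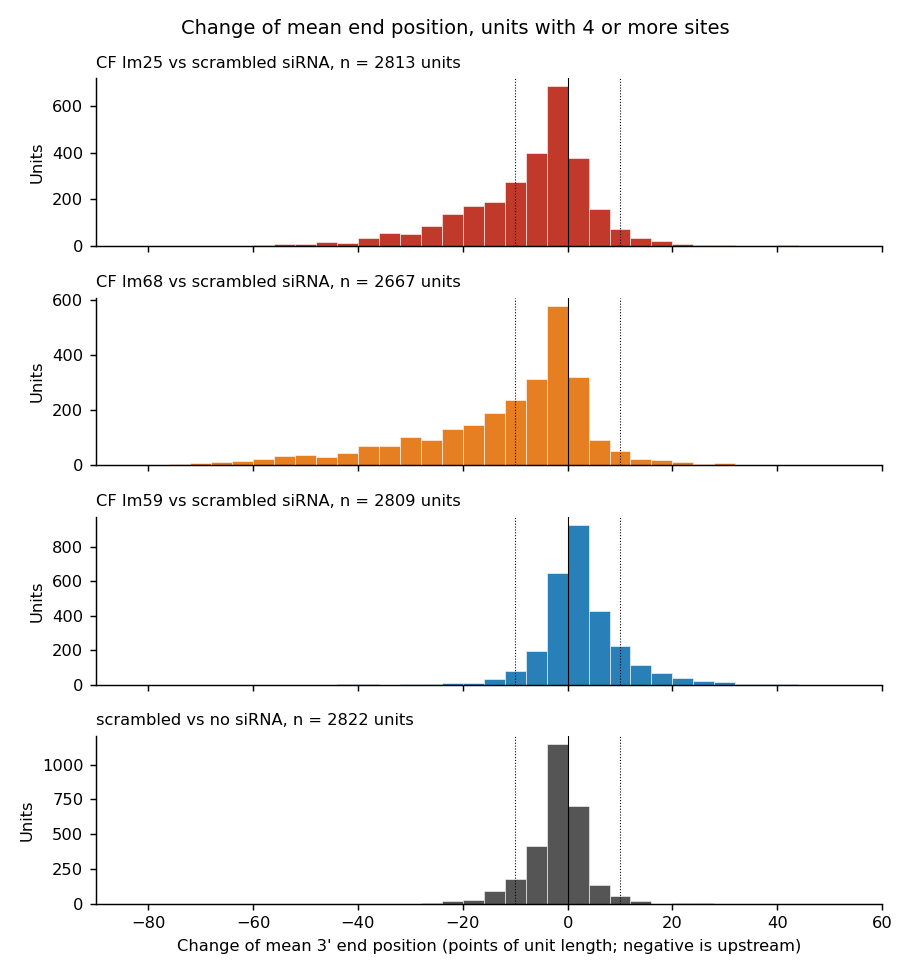
Number of units (y axis) by change of mean end position in points of unit length (x axis, bins of 4 points), with 1 panel per comparison; dotted lines mark 10 points in either direction. The distributions for CF Im25 siRNA and CF Im68 siRNA have a long tail on the upstream side. Calls upstream by 20 points or more numbered 417 of 2813 and 672 of 2667 units, against 26 of 2822 for scrambled siRNA against no siRNA. Among all units with 2 or more sites they numbered 1021 of 7770, 1311 of 6539 and 127 of 8191 in the same comparisons.

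The share of units called upstream after CF Im25 siRNA or CF Im68 siRNA was higher in units of 4, 5 and 6 sites than in units of 2 or 3. After CF Im25 siRNA it was 22.7% in units of 2 sites, 28.3% of 3, 30.8% of 4, 32.8% of 5, 36.1% of 6, 29.2% of 7 or 8 and 25.9% of 9 or more. For CF Im68 siRNA the corresponding shares were 23.8%, 34.7%, 39.7%, 43.0%, 45.2%, 41.5% and 41.4%. Calls downstream became fewer over the first steps of this series, from 7.29% of units of 2 sites to 3.51% of units of 4 after CF Im25 siRNA. In the other comparisons the share called upstream was not higher in units of more sites: CF Im59 siRNA gave 7.03% in units of 2 sites and 2.74% in units of 5, and scrambled siRNA against no siRNA 9.12% and 8.50%. Downstream, scrambled siRNA against no siRNA gave 5.13% in units of 2 sites and 2.92% in units of 4. Units of more sites also hold more reads and are longer, and the part of either in these shares was not tested. Sites were counted on all 6 libraries pooled, so a site used mainly after a knockdown could raise the number of sites and also give an upstream call. The split by number of sites was not made with sites from the 3 control libraries alone, so the part of this was not tested either.

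**Figure D3:**
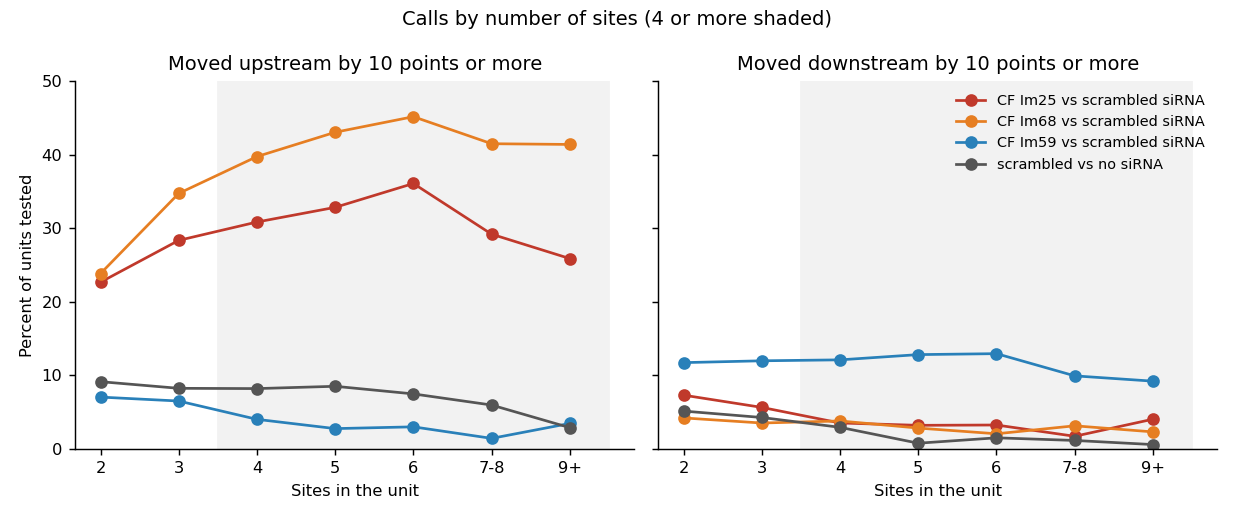
Percentage of the units tested (y axis) whose mean end position moved upstream (left) or downstream (right) by 10 points or more, by number of sites in the unit (x axis), with units of 4 or more sites shaded; lines are comparisons. The upstream share reaches 36.1% after CF Im25 siRNA and 45.2% with CF Im68 siRNA in units of 6 sites. Sites were counted on all 6 libraries pooled, the knockdowns included.

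Calls also differed by the length of the unit. The split by length was made for the units under study only, without a share for units of fewer sites. Of the units spanning at least 1000 and under 2000 nt, 42.2% moved upstream after CF Im25 siRNA (179 of 424) and 53.8% after CF Im68 siRNA (220 of 409). Among those of 8000 nt or more the shares were 18.4% after CF Im25 siRNA (61 of 331) and 22.3% after CF Im68 siRNA (69 of 310). In units under 1000 nt they were 26.6% and 30.1% for the same knockdowns. Calls upstream were thus most frequent in units of intermediate length, and calls downstream were more frequent in the longest, at 1.46% under 1000 nt and 5.74% at 8000 nt or more after CF Im25 siRNA. Measured in nucleotides the median change grew with length after CF Im25 siRNA, from −16.9 nt in the shortest class to −223 nt in the longest. For CF Im68 siRNA it was −23.7 nt in the shortest class, −329 nt from 2000 to under 4000 nt and −196 nt at 8000 nt or more.

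Units whose main end was already the last site moved upstream more often. To keep this classification apart from the change, the main site (the most used one) was taken from a control library that the comparison did not use. Where it was the last site without siRNA, 351 of 774 units (45.3%) moved upstream after CF Im25 siRNA, against 26.1% where it was an inner site and 27.1% where it was the first. With the main site taken from the alkaline scrambled library, 343 of 663 units with a last main site (51.7%) moved upstream after CF Im68 siRNA, against 38.9% for inner and 35.7% for first main sites. A unit whose main end is the first site can still move upstream through the loss of its later sites. A unit with most reads at its last site has little room to move downstream and much to move upstream. The part of this in the shares was not tested, and the same split was not made for units of fewer sites.

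Calls at single sites followed the order along the unit, at shares close to those of all units with 2 or more sites. A site was called when its share of the reads of the unit changed by at least 20 points with a 95% interval (Newcombe) that did not include 0. With CF Im25 siRNA 367 of 2813 first sites gained and 19 lost, beside 12.5% gaining and 1.69% losing among the first sites of all units with 2 or more sites. Of the last sites, 28 gained and 313 (11.1%) lost, beside 1.92% and 11.8%. Inner sites went both ways, with 375 (3.98%) gaining and 377 (4.01%) losing of 9412, beside 4.16% and 4.27%.

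The same order held after CF Im68 siRNA at higher numbers. First sites gained in 519 of 2667 units (19.5%) and lost in 40, beside 17.5% and 1.21%, and last sites gained in 24 and lost in 467 (17.5%), beside 0.948% and 16.6%. Of 9078 inner sites, 557 gained and 561 lost, beside 6.29% and 6.36%. Restricted to units with at least 200 reads in both libraries, the share of first sites that gained was 11.9%, against 19.5% at the minimum of 50. In scrambled siRNA against no siRNA 19 of 2822 first sites gained and 3 lost, beside 1.39% and 0.794%, and 7 last sites gained and 42 lost, beside 0.855% and 1.89%. Inner sites there gained in 33 and lost in 31 of 9431 cases, beside 0.59% and 0.399%.

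Within a unit that moved, one site usually took up most of the gain. In the 887 units called upstream after CF Im25 siRNA a median of 30.7 points of the reads changed site, and 80.6% of the gain (median) was at a single site. That site was the first one in 483 units (54.5%), and the largest loss was at the last site in 478 (53.9%). For CF Im68 siRNA the median was 39.0 points, with 77.6% of the gain at a single site. The same held in the other comparisons, where a single site took a median of 83.0% of the gain in the 90 units called upstream after CF Im59 siRNA, 86.2% in the 335 called downstream there and 74.0% in the 213 called upstream in scrambled siRNA against no siRNA. The largest gain lay a median of 2144 nt upstream of the largest loss after CF Im25 siRNA and 2058 nt with CF Im68 siRNA.

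The main site itself was replaced in many units. Such a replacement was counted where the most used site differed between the libraries and the interval of the share change excluded 0 at both sites. After CF Im25 siRNA the new main site lay upstream in 479 of 2813 units (17.0%) and downstream in 66 (2.35%), beside 11.1% and 1.84% of all units with 2 or more sites. With CF Im68 siRNA it lay upstream in 685 of 2667 (25.7%) and downstream in 91 (3.41%), beside 16.8% and 2.16%. Scrambled siRNA against no siRNA gave 109 of 2822 (3.86%) upstream and 33 (1.17%) downstream, beside 3.06% and 1.29%.

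Most upstream replacements in these units skipped sites, in scrambled siRNA against no siRNA too. A unit of more sites has more of them to pass over, scarcely used ones included. The part of this was not tested, and no count is given for units of fewer sites. Of the 479 upstream replacements after CF Im25 siRNA, 104 went to the next site, 164 passed over one site and 211 passed over at least a pair, with up to 11 sites passed over. Of the 685 after CF Im68 siRNA, 141 went to the next site, 212 passed over one and 332 passed over more, with up to 8. Of the 109 upstream replacements in scrambled siRNA against no siRNA, 31 went to the next site, 38 passed over one and 40 passed over more, so skipping was frequent there too. The median distance between old and new main site was 1795 nt (interquartile range 883 to 3144 nt) after CF Im25 siRNA and 1693 nt (839 to 2781 nt) with CF Im68 siRNA. The new main site was an inner one in 267 of 479 units after CF Im25 siRNA and in 374 of 685 with CF Im68 siRNA. A move from the last site all the way to the first was seen in 71 units after CF Im25 siRNA and in 106 with CF Im68 siRNA.

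Neighbouring sites changed in the same direction more often when they were close after CF Im25 siRNA and CF Im68 siRNA. Among neighbouring pairs in which each site changed by at least 5 points, both went in the same direction in 103 of 140 pairs (73.6%) at 26 to 49 nt after CF Im25 siRNA, in 59.6% at 50 to 199 nt, in 48.7% at 200 to 999 nt and in 40.7% at 1000 to 5000 nt. Under CF Im68 siRNA the shares were 83.5% (223 of 267 pairs), 72.4%, 54.5% and 43.3% over the same distances. They were lower after CF Im59 siRNA, at 40.3%, 43.9%, 35.2% and 28.8%. Scrambled siRNA against no siRNA gave 30%, 25.2%, 38.1% and 22.4%. Where neighbours at 1000 to 5000 nt went opposite ways after CF Im68 siRNA, the upstream one gained in 381 pairs and the downstream one in 152. Pairs within a unit share its total, so a gain at one site lowers the share of the others. Sites at 26 to 49 nt lie just beyond the joining distance of 25 nt, and some can be parts of one broad site. The part of this in the shares was not tested, and no share is given for units of fewer sites.

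**Figure D4:**
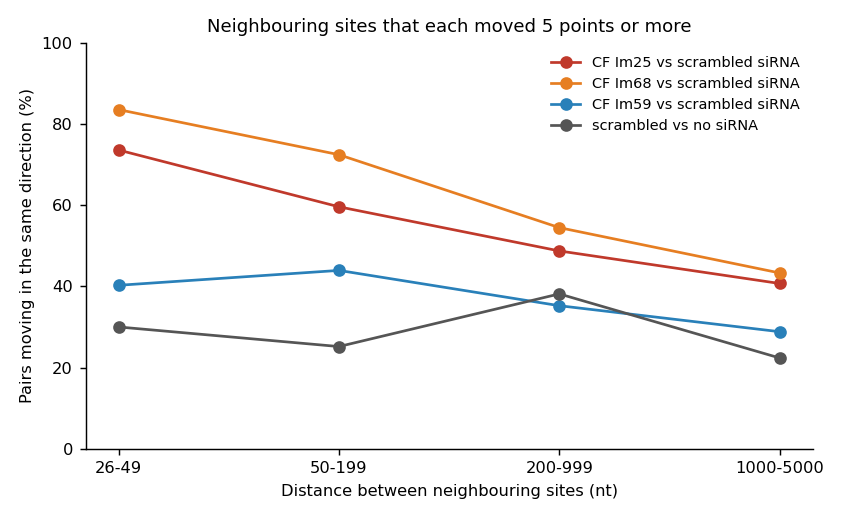
Percentage of neighbouring pairs of sites that changed in the same direction (y axis) by the distance between them (x axis), for pairs in which each site changed by 5 points of unit reads or more; lines are comparisons. At 26 to 49 nt the share was 73.6% after CF Im25 siRNA and 83.5% with CF Im68 siRNA, against 30% for scrambled siRNA against no siRNA.

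The knockdowns of CF Im25 and CF Im68 share no library, and their changes were compared unit by unit. Across the 2638 units tested in both, the changes of mean end position had a Pearson correlation of 0.571 and a Spearman correlation of 0.560, as a description across units, which share their own number and spacing of sites in both comparisons. In 618 units the ends moved upstream in both, which is 75.4% of the 820 that did so after CF Im25 siRNA and 56.1% of the 1102 that did so after CF Im68 siRNA. Over all units tested in both, 41.8% moved upstream with CF Im68 siRNA. Among units with 2 or more sites the corresponding shares moving in both were 67.2% and 52.5%, and the Pearson correlation was 0.539. Ends moved downstream in both in 21 units, upstream after CF Im25 siRNA and downstream with CF Im68 siRNA in 4, and the opposite way in 14. Of 213 units whose main site was replaced upstream in both, 144 (67.6%) acquired the same new main site, beside 224 of 298 (75.2%) among all units with 2 or more sites, and 98 had the same old and the same new one. Where the new sites differed, the one after CF Im68 siRNA lay further upstream in 27 units and the one after CF Im25 siRNA in 42.

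The median number of sites in use differed little, although single units went both ways. Expressed as the number of equally used sites that would give the same evenness (the inverse Simpson index), the median was 2.31 after CF Im25 siRNA and 2.25 after scrambled siRNA, with a median difference of 0.0317 (interquartile range −0.329 to 0.437, 2813 units). It was 2.24 after CF Im68 siRNA and 2.29 after scrambled siRNA, with a median difference of −0.00462 (−0.488 to 0.424, 2667 units). When sites were called on the 3 control libraries alone the median differences were −0.0228 for CF Im25 siRNA and −0.0921 for CF Im68 siRNA. It was higher by 1 or more in 249 units and lower by as much in 254 after CF Im25 siRNA, and in 288 and 330 with CF Im68 siRNA, against 52 and 31 in scrambled siRNA against no siRNA.

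Total reads of a unit, over all its sites and scaled to the reads in nuclear units, were called at a difference of at least 2-fold with 50 reads in one library, provided the exact 95% interval excluded a ratio of 1. The total was higher after CF Im25 siRNA in 225 units and lower in 227 (2847 tested), beside 13.1% and 12.1% of all units. For CF Im68 siRNA the numbers were 207 higher and 193 lower (2827 tested), beside 11.2% and 6.96%. For CF Im59 siRNA they were 94 higher and 157 lower (2844 tested), beside 8.61% and 11.1%, and for scrambled siRNA against no siRNA 52 higher and 40 lower (2847 tested), beside 4.3% and 4.29%. Against no siRNA in place of scrambled siRNA, 236 units were higher and 146 lower after CF Im25 siRNA (2849 tested), beside 9.86% and 10.3% of all units, so the balance of higher and lower totals depended on the control. The units called upstream had a median log2 ratio of 0.07 after CF Im25 siRNA and 0.05 with CF Im68 siRNA. The 83 units called downstream after CF Im68 siRNA had a median log2 ratio of −0.42, with 15 of them lower and 2 higher. A factor for composition (TMM) shifted all log2 ratios of CF Im68 siRNA by 0.18, and in bulk RNA a change in all cells and a larger one in some of them cannot be told apart.

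CF Im59 siRNA gave a different picture. Of 2809 units, 90 (3.20%) moved upstream and 335 (11.9%) downstream against scrambled siRNA, beside 5.54% and 11.9% of all units with 2 or more sites, with a median change of 1.37 points. Against no siRNA 97 of 2830 (3.43%) moved upstream and 130 (4.59%) downstream, beside 5.39% and 6.03%, with a median change of 0.153 points. Downstream calls thus outnumbered upstream ones by far more against the scrambled library than against cells without siRNA, and scrambled siRNA itself lay 1.16 points upstream of no siRNA in the median. First sites gained in 14 units and lost in 39, beside 1.46% and 2.64%, and last sites gained in 87 and lost in 19, beside 3.61% and 1.55%. Of 9402 inner sites, 63 gained and 88 lost, beside 0.83% and 1.28%. Its main site was replaced upstream in 74 units and downstream in 158, beside 2.22% and 4%, and against no siRNA in 57 and 71, beside 1.86% and 2.2%.

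Single units show what these figures look like along the RNA. The units with the largest upstream change after CF Im25 siRNA were chosen among called ones with at least 100 reads in both libraries and the same direction against no siRNA. They were found by their change, so their values are given without a test. Shares are percentages of the reads of the unit, and sites are named by their distance from the first one.

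The largest was a unit of 4 sites on the minus strand of chromosome 17 at 62538423 to 62541501. Its mean end position was 15.7% after CF Im25 siRNA and 73.1% after CF Im59 siRNA, against 77.1% after scrambled siRNA and 73.6% without siRNA. The change after CF Im25 siRNA was −61.3 points (95% interval −67.5 to −55.2, 171 reads after CF Im25 siRNA and 322 after scrambled siRNA). CF Im25 siRNA stood alone among the alkaline libraries, which otherwise lay within a few points of one another. The site at 36 nt held 70.8% (exact 95% interval 63.3 to 77.5%) after CF Im25 siRNA and 12.4% (9.03 to 16.5%) after scrambled siRNA, and the last site, at 3078 nt, 10.53% after CF Im25 siRNA and 56.2% after scrambled siRNA. With RNase I the last site held 1.88% after CF Im68 siRNA and 30.6% after scrambled siRNA, where the unit had 62 reads. Total reads after CF Im25 siRNA were 0.477 times those of scrambled siRNA, but 0.722 times those without siRNA, which is not called.

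A unit of 5 sites on the minus strand of chromosome 6, at 93949747 to 93952890, was similar. Its mean end position was 28.2% after CF Im25 siRNA and 87.0% after CF Im59 siRNA, against 86.7% after scrambled siRNA and 86.0% without siRNA. The first site held 45.6% (40.5 to 50.8%) after CF Im25 siRNA and 2.38% (0.778 to 5.47%) after scrambled siRNA. After CF Im68 siRNA the reads went to the same end of the unit: the first pair of sites, at 0 and 115 nt, held 34.1% and 49.3% after CF Im68 siRNA, against 0.725% and 6.52% after scrambled siRNA. The sites that gave way differed between fragmentations. In the alkaline scrambled library the last site, at 3143 nt, held 69.5%, and in the RNase I scrambled library the site at 1749 nt held 60.1%. Total reads differed by less than 2-fold in every comparison of this unit.

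A unit on the plus strand of chromosome 5 at 110462617 to 110466201 held 6 sites. Its mean end position was 12.1% after CF Im25 siRNA and 63.4% after CF Im59 siRNA, against 65.5% after scrambled siRNA and 76.7% without siRNA. With RNase I it was 14.2% after CF Im68 siRNA and 69.7% after scrambled siRNA, so the ends lay near the start of the unit after either knockdown. The site at 0 nt was the main one after CF Im25 siRNA, with 53.98%, against 14.95% after scrambled siRNA. The site at 81 nt was the main one after CF Im68 siRNA, with 36.2%, against 5.79% after scrambled siRNA. Reads of the unit were 289 after CF Im25 siRNA and 107 after scrambled siRNA, 2.42 times as many after scaling.

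At 147706227 to 147711607 on the plus strand of chromosome 6, a unit of 6 sites had a mean end position of 26.8% after CF Im25 siRNA and 90.5% after CF Im59 siRNA, against 79.98% after scrambled siRNA and 88.2% without siRNA. The first site held 57.5% (52.0 to 62.8%) after CF Im25 siRNA and 8.10% (5.20 to 11.9%) after scrambled siRNA. The site at 260 nt took the largest share after CF Im68 siRNA, 46.2%, against 16.4% after scrambled siRNA, where the library held only 55 reads. On the minus strand of chromosome 3, at 170606861 to 170611131, the mean end position was 32.0% after CF Im25 siRNA and 85.5% after CF Im59 siRNA, against 90.3% after scrambled siRNA and 82.5% without siRNA. No site lay between 1267 and 3941 nt, and with gaps of at most 2500 nt the sites that remained together changed by 3.53 points after CF Im25 siRNA, so the move was between groups of sites that a stricter distance keeps apart.

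The largest upstream changes after CF Im68 siRNA were larger still. The unit on the plus strand of chromosome 15 at 78790793 to 78793793 held 6 sites, and its mean end position was 16.2% after CF Im68 siRNA and 91.5% after scrambled siRNA. That is a change of −75.3 points (−78.2 to −72.4), with 971 reads after CF Im68 siRNA and 604 after scrambled siRNA. The first site held 42.3% (39.2 to 45.5%) after CF Im68 siRNA and 2.48% (1.40 to 4.06%) after scrambled siRNA. The last site, at 3000 nt, held 13.3% after CF Im68 siRNA and 85.6% after scrambled siRNA. After CF Im25 siRNA the change was −44.0 points, and there the site at 69 nt was the main one, with 45.5%, against 18.4% after scrambled siRNA and 9.32% without siRNA.

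On chromosome 2, a unit on the minus strand at 20448475 to 20451050 ended almost wholly at its first site after CF Im68 siRNA. That site held 91.3% (89.4 to 92.9%) of 1055 reads after CF Im68 siRNA and 6.12% (3.47 to 9.90%) of 245 reads after scrambled siRNA. In the alkaline libraries it held 37.0% after CF Im25 siRNA and 3.75% after CF Im59 siRNA, against 8.18% after scrambled siRNA and 4.51% without siRNA. Another, on the plus strand of chromosome 11 at 105967716 to 105969437 showed the same exchange between its first site and the site at 1683 nt. Its first site held 83.7% (81.8 to 85.4%) after CF Im68 siRNA and 9.08% (6.95 to 11.6%) after scrambled siRNA, and 37.8% after CF Im25 siRNA against 2.40% after scrambled siRNA with alkaline hydrolysis. Total reads there were 1.10 times those of scrambled siRNA after CF Im68 siRNA.

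A unit on the minus strand of chromosome 18 at 56995058 to 56998197 changed in output as well as in its ends. The first site held 80.1% after CF Im68 siRNA and 14.3% after scrambled siRNA, and the last, at 3139 nt, 7.63% after CF Im68 siRNA and 75.5% after scrambled siRNA. The level of the unit was 86.2 CPM after CF Im68 siRNA and 41.8 CPM after scrambled siRNA. With alkaline hydrolysis it was 283 CPM after CF Im25 siRNA and 51.9 CPM after CF Im59 siRNA, against 35.1 CPM after scrambled siRNA and 39.8 CPM without siRNA. CF Im25 siRNA was thus the one alkaline library with a high level, 8.05 times that of scrambled siRNA. The unit on the plus strand of chromosome 14 at 71576866 to 71582099 had its first site at 74.7% after CF Im68 siRNA and 9.94% after scrambled siRNA, but no site lay between 355 and 5161 nt, and with gaps of at most 2500 nt the sites left together changed by −4.06 points.

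Next are the 5 units of highest level among those whose main site moved upstream after both knockdowns, so that the direction of the move was part of the choice. The unit on the minus strand of chromosome 1 at 235269383 to 235275377 held 9 sites, of which 3 carried most reads. The site at 229 nt held 37.0% (35.4 to 38.5%) after CF Im25 siRNA and 10.8% (9.67 to 12.1%) after scrambled siRNA, and the site at 2717 nt 35.8% after CF Im25 siRNA and 68.0% after scrambled siRNA. In the RNase I pair the site at 229 nt held 43.6% (42.5 to 44.6%) after CF Im68 siRNA and 6.74% (5.93 to 7.61%) after scrambled siRNA, and the site at 2717 nt 15.3% after CF Im68 siRNA and 74.6% after scrambled siRNA. The same pair of sites was thus exchanged in both knockdowns. The inner site at 464 nt gained beside it, to 18.8% after CF Im25 siRNA against 10.96% after scrambled siRNA, and to 38.8% after CF Im68 siRNA against 16.1% after scrambled siRNA.

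The unit on the minus strand of chromosome 1 at 54492363 to 54497722 exchanged neighbouring sites, at 32 and 371 nt. The site at 32 nt held 80.6% (79.2 to 82.0%) after CF Im25 siRNA and 47.1% after CF Im59 siRNA, against 47.97% (45.7 to 50.3%) after scrambled siRNA and 44.6% without siRNA. With RNase I it held 70.8% after CF Im68 siRNA and 31.9% after scrambled siRNA, and the site at 371 nt took nearly all the rest in every library. Its mean end position changed by only −3.29 points after CF Im25 siRNA and −3.72 with CF Im68 siRNA, because a scarcely used last site lay at 5359 nt; a unit of this shape is not called although its main end is replaced. With gaps of at most 2500 nt, which drops that site, the changes were −29.4 points and −36.6 points for the same knockdowns.

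At 48884796 to 48890718 on the plus strand of chromosome 8, a unit of 7 sites had its main site at 5028 nt after CF Im25 siRNA, with 56.4% against 47.5% after scrambled siRNA. The last site, at 5922 nt, held 31.2% after CF Im25 siRNA and 55.3% after CF Im59 siRNA, against 48.99% after scrambled siRNA and 58.6% without siRNA. With RNase I the last site held 25.1% after CF Im68 siRNA and 60.1% after scrambled siRNA, and the site at 4687 nt held 19.6% after CF Im68 siRNA and 5.42% after scrambled siRNA. The gain after CF Im68 siRNA was therefore divided over more than one upstream site.

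The remaining such units involved other conditions too. On the minus strand of chromosome X at 100651100 to 100655843, the site at 3044 nt held 26.9% after CF Im25 siRNA and 27.0% after CF Im59 siRNA, against 56.5% after scrambled siRNA and 57.9% without siRNA. Total reads of that unit were 2.87 times those of scrambled siRNA after CF Im25 siRNA and 3.68 times after CF Im59 siRNA, and its level was 503 CPM after CF Im25 siRNA and 646 CPM after CF Im59 siRNA, against 175 CPM after scrambled siRNA and 285 CPM without siRNA. Against no siRNA the ratios were 1.77 after CF Im25 siRNA, which is not called, and 2.26 after CF Im59 siRNA. With RNase I the same site held 37.3% after CF Im68 siRNA and 50% after scrambled siRNA. With gaps of at most 2500 nt the mean end position there changed by −5.57 points after CF Im25 siRNA, against −24.9 points with gaps up to 5000 nt. On the minus strand of chromosome 12 at 79981573 to 79997474, a unit of 13 sites over 15901 nt, the first site held 61.3% after CF Im25 siRNA and 50.5% after CF Im59 siRNA, against 31.4% after scrambled siRNA and 38.2% without siRNA. After CF Im68 siRNA its largest share, 23.4%, was at 11108 nt, against 0.435% there after scrambled siRNA, and the last site held 7.89% after CF Im68 siRNA and 52.0% after scrambled siRNA. The site at 11108 nt had 208 reads after CF Im68 siRNA and from 1 to 19 in each other library. It thus passed the threshold of 1 CPM mainly through the library in which it was high, and its share is given as a description. The mean end position of that unit changed by −27.6 points after CF Im68 siRNA, but by 9.11 points among the sites that gaps of at most 2500 nt keep together.

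**Figure D5:**
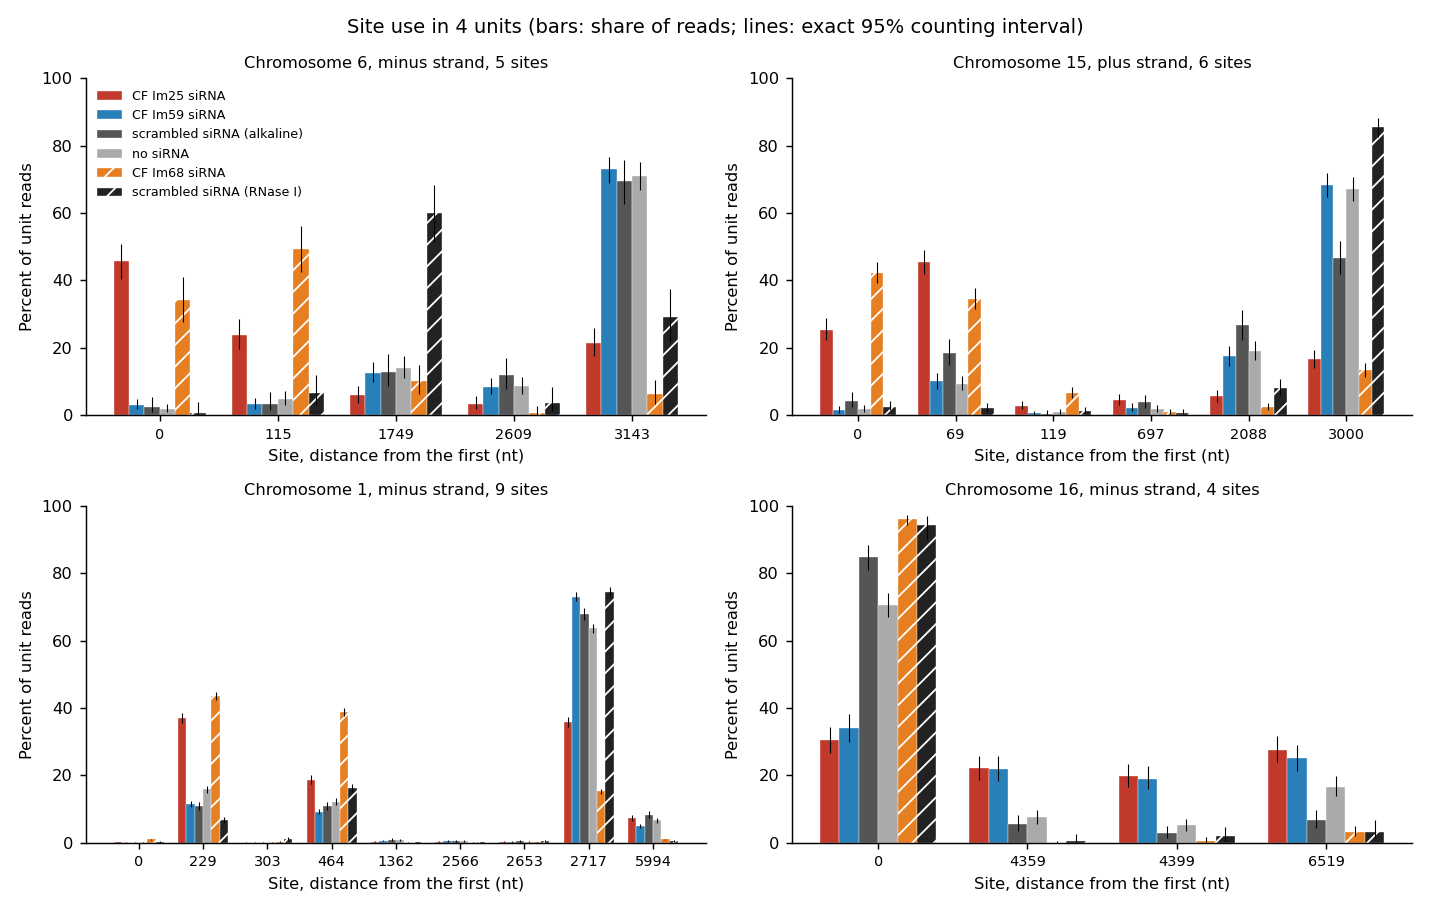
Percentage of the reads of a unit (y axis, from 0) at each site, named by its distance from the first site in nt (x axis), in 4 of the units described; bars are libraries, hatched for RNase I, and lines are exact 95% intervals of counting error. In the unit on chromosome 1 the site at 229 nt holds 37.0% after CF Im25 siRNA and 10.8% after scrambled siRNA, and in the unit on chromosome 16 the first site holds 30.4% after CF Im25 siRNA and 85.0% after scrambled siRNA.

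Downstream moves were rare after CF Im25 siRNA and CF Im68 siRNA, and the largest of them after CF Im25 siRNA crossed wide gaps. The unit on the minus strand of chromosome 16 at 30097117 to 30103636 had its first site 4359 nt from the next. That first site held 30.4% (26.6 to 34.5%) after CF Im25 siRNA and 34.0% after CF Im59 siRNA, against 85.0% (81.1 to 88.4%) after scrambled siRNA and 70.7% without siRNA. Its mean end position changed by 43.5 points after CF Im25 siRNA and 40.3 points after CF Im59 siRNA, comparisons that share the scrambled library. With RNase I the first site held 96.2% after CF Im68 siRNA and 94.4% after scrambled siRNA, so that no such difference was seen there. On the minus strand of chromosome 12 at 51373191 to 51379777, the site at 6200 nt held 86.3% after CF Im25 siRNA and 64.5% after CF Im59 siRNA, against 52.0% after scrambled siRNA and 74.8% without siRNA. It held 89.5% after CF Im68 siRNA and 71.7% after scrambled siRNA with RNase I, and the scrambled library was the lowest of the alkaline ones. With gaps of at most 2500 nt the sites left together there changed by 0.440 points after CF Im25 siRNA.

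A unit on the plus strand of chromosome 12 at 132562397 to 132570326 changed by 42.9 points after CF Im25 siRNA, with 107 reads after scrambled siRNA, and scrambled siRNA itself lay 18.4 points upstream of no siRNA there. No site lay between 2606 and 7456 nt, and with gaps of at most 2500 nt the sites left together changed by −15.1 points, in the other direction. After CF Im68 siRNA the largest downstream change was on the plus strand of chromosome 5 at 14698688 to 14703471, with a mean end position of 58.6% after CF Im68 siRNA and 18.0% after scrambled siRNA. Its last site held 51.7% (45.8 to 57.6%) after CF Im68 siRNA and 13.9% (8.82 to 20.5%) after scrambled siRNA. That site held between 0.825% and 1.98% in the 4 alkaline libraries, so both RNase I libraries stood above all alkaline ones. The call was lost with sites from the 3 control libraries alone, where the change was 5.13 points, and with gaps up to 10000 nt, where it was 4.16 points. Another on the minus strand of chromosome 9 at 35657747 to 35661434 had its first site at 49.03% after CF Im68 siRNA and 82.7% after scrambled siRNA. Another on the plus strand of chromosome 16 at 9205958 to 9213546 changed by 31.6 points after CF Im68 siRNA and 13.1 points after CF Im25 siRNA, but by −18.5 points after CF Im68 siRNA among the sites that gaps of at most 2500 nt keep together.

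The units with the largest changes after CF Im59 siRNA all held a gap of over 2500 nt between their main sites. Upstream, the unit on the minus strand of chromosome 17 at 8122368 to 8131140 had its first site at 72.0% after CF Im25 siRNA and 67.5% after CF Im59 siRNA, against 29.4% after scrambled siRNA and 50.8% without siRNA. Another on the minus strand of chromosome 2 at 128458607 to 128463492 had a mean end position of 19.0% after CF Im25 siRNA and 38.2% after CF Im59 siRNA, against 69.4% after scrambled siRNA and 55.9% without siRNA. In both the scrambled library lay furthest downstream of the alkaline libraries. The site at 1380 nt of the unit on the plus strand of chromosome 5 at 170832350 to 170838958 held 72.1% after CF Im25 siRNA and 66.0% after CF Im59 siRNA, against 31.9% after scrambled siRNA and 65.9% without siRNA. Here CF Im59 siRNA and no siRNA were nearly equal, and the change after CF Im59 siRNA was −27.0 points against scrambled siRNA and −2.87 points against no siRNA.

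Downstream, the unit on the plus strand of chromosome 1 at 161928816 to 161933860 had its last site, at 5044 nt, at 62.9% after CF Im59 siRNA, against 21.9% after scrambled siRNA and 44.2% without siRNA. On the plus strand of chromosome 18 at 32824063 to 32829770 the first site held 15.5% after CF Im59 siRNA, against 54.6% after scrambled siRNA and 30.9% without siRNA. In each of these units the value without siRNA lay between the other 2. With gaps of at most 2500 nt these units were not called after CF Im59 siRNA: the sites left together changed by 4.13 points on chromosome 17, 9.43 points on chromosome 2, 0.608 points on chromosome 5, −6.64 points on chromosome 1 and 2.20 points on chromosome 18.

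The most abundant units of 4 or more sites hardly used their further sites. In the unit with the highest level, at 6646973 to 6647537 on the plus strand of chromosome 12 (21376 CPM in the mean), the last of 4 sites held between 99.80% and 99.98% of the reads in every library. The first of 9 sites at 89629474 to 89634258 on the plus strand of chromosome 16 held 99.4% after CF Im25 siRNA and 98.5% after scrambled siRNA, and 93.0% after CF Im68 siRNA and 90.5% after scrambled siRNA with RNase I. In the units on the plus strand of chromosome 11 at 75115838 and the minus strand of chromosome 5 at 180663930 the main site held at least 99.5% in every library. The same held at 95.3% or more for the unit on the plus strand of chromosome 19 at 55899387. The widest change of mean end position among these 5 units after a knockdown was −1.64 points, on chromosome 19 after CF Im68 siRNA. Further sites that hold a small share of so abundant a unit still pass the threshold of 1 CPM.

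The units with most sites were long and abundant. The one with 32 sites spanned 10416 nt on the minus strand of chromosome X. The minus strand of chromosome 5 held a unit of 22 sites at 148872539 to 148884410, and its mean end position was 80.2% after CF Im25 siRNA and 82.5% after CF Im59 siRNA, against 79.0% after scrambled siRNA and 81.7% without siRNA. It was 75.03% after CF Im68 siRNA and 80.3% after scrambled siRNA with RNase I. Single sites differed more than this mean: with RNase I the site at 8218 nt held 19.3% after CF Im68 siRNA and 1.56% after scrambled siRNA, and the site at 10506 nt 11.8% after CF Im68 siRNA and 30.9% after scrambled siRNA. The last site held 23.4% after CF Im25 siRNA and 19.9% after CF Im59 siRNA, against 9.22% after scrambled siRNA and 12.9% without siRNA. The unit of 20 sites on the minus strand of chromosome 1 at 205681951 to 205688728 differed most between fragmentations at its first site, which held 71.0% after CF Im68 siRNA and 70.9% after scrambled siRNA with RNase I, and 1.85% after CF Im25 siRNA and 1.72% after scrambled siRNA with alkaline hydrolysis. The mean end position changed there by −2.58 points (−3.23 to −1.93) after CF Im25 siRNA, by 6.21 points (5.31 to 7.10) after CF Im59 siRNA and by −2.96 points (−3.54 to −2.37) after CF Im68 siRNA, all below the threshold for a call.

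In the unit of 16 sites on the minus strand of chromosome 1 at 67872526 to 67883214 a single site took over after CF Im25 siRNA. The site at 4440 nt held 58.6% after CF Im25 siRNA and 16.6% after CF Im59 siRNA, against 20.2% after scrambled siRNA and 18.8% without siRNA, while the site at 7094 nt held 6.25% after CF Im25 siRNA and 17.7% after scrambled siRNA. After CF Im68 siRNA the sites at 4413 and 4440 nt held 40.8% and 50.7%, against 27.8% and 18.3% after scrambled siRNA. Its mean end position changed by −8.54 points after CF Im25 siRNA and −8.51 points after CF Im68 siRNA, below the threshold for a call. The unit of 15 sites on the plus strand of chromosome 17 at 7461197 to 7485429, which spanned 24232 nt, changed by −2.41 points after CF Im25 siRNA and −1.04 points after CF Im68 siRNA. Its total reads after CF Im25 siRNA were 0.475 times those of scrambled siRNA, but 0.743 times those without siRNA, which is not called, and scrambled siRNA itself had 1.56 times the reads of no siRNA.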

How the data were processed

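For each of 6 libraries the authors deposited read counts per 3′ end position and strand, on GRCh37 (hg19) per the submitters' processing notes; for the aligner and read filters: not given in the sources used here. Counts were scaled to counts per 1000000 reads, pooled at equal weight and joined greedily within 25 nt, and units were built as stated in the report. Shares and mean end positions came from raw counts, with 95% multinomial, Newcombe or exact intervals. Each group holds 1 library, so no p-value was computed. Units described singly were the 5 with most sites, the 5 of highest level, the largest called changes after each knockdown with at least 100 reads in both libraries, and the 5 most abundant whose main site moved upstream after both CF Im25 siRNA and CF Im68 siRNA. The members and lists were chosen with earlier results of these data known. Alternatives were other distances, thresholds, read minimums, controls and scalings. The calls were also run on simulated data, which cannot show how far libraries of one group differ, because each group holds 1 library. Python 3.11.15, numpy 2.4.6, pandas 2.3.3, scipy 1.17.1, matplotlib 3.10.9, R 4.3.3 and edgeR 4.0.16 (TMM and median-of-ratios factors only) were used.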

Additional observations from a re-analysis of the deposited data

How the results depend on the processing

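No paired analysis was possible because each group holds 1 library. The upstream shares for both CF Im25 and CF Im68 stayed within 1.5 times their value under every alternative except the thresholds of 20 points. Of the results over the units under study, 302 comparisons with an alternative were counted as unchanged and 70 were not. For shares of units called, unchanged meant within that range. For the number of sites in use it meant a small difference, so a change of sign could count as unchanged. In the named units 417 comparisons kept direction and call and 12 changed direction. A further 13 became called, and 20 were no longer called or no longer had enough reads. The cause was not tested. In what follows each value is a percentage of units called. At a site threshold of 2 CPM it was 2.03 downstream after CF Im68 siRNA, 0.446 for loss at last sites after CF Im59 siRNA and 0.298 for gain at first sites in scrambled siRNA against no siRNA. With gaps of at most 2500 nt it was 2.07 downstream after CF Im25 siRNA, 2.06 downstream after CF Im68 siRNA, and 1.22 downstream and 0.329 for gain at first sites in scrambled siRNA against no siRNA. With only sites of 5% or more it was 5.64 downstream and 20.7 for gain at first sites after CF Im25 siRNA, 31.0 for gain at first sites after CF Im68 siRNA, 5.39 upstream, 18.7 downstream, 0.798 for gain at first and 1.13 for loss at last sites after CF Im59 siRNA, and 11.6 upstream, 2.77 downstream and 2.64 for loss at last sites in scrambled siRNA against no siRNA. With at least 200 reads it was 1.89 downstream after CF Im25 siRNA, 1.92 downstream and 11.85 for gain at first sites after CF Im68 siRNA, 2.13 upstream, 0.291 for gain at first and 0.243 for loss at last sites after CF Im59 siRNA, and 4.82 upstream, 1.09 downstream, 0.378 for gain at first and 0.708 for loss at last sites in scrambled siRNA against no siRNA. After thinning to equal depth the main site was replaced downstream in 0.740 in scrambled siRNA against no siRNA. Against no siRNA it was 2.045 downstream, 1.52 for main sites replaced downstream and 5.12 for lower totals after CF Im25 siRNA, and 4.59 downstream, 0.247 for loss at last sites, 2.51 for main sites replaced downstream, 2.00 for higher and 1.48 for lower totals after CF Im59 siRNA.

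At 5 points of unit length it was 7.32 downstream after CF Im25 siRNA, 5.66 downstream after CF Im68 siRNA, 7.37 upstream and 24.0 downstream after CF Im59 siRNA, and 18.7 upstream and 4.54 downstream in scrambled siRNA against no siRNA. At 20 points it was 14.8 upstream and 0.675 downstream after CF Im25 siRNA, 25.2 and 0.937 with CF Im68 siRNA, 0.712 and 2.56 after CF Im59 siRNA, and 0.921 and 0.319 in scrambled siRNA against no siRNA. At 10 points of unit reads the gain at first and loss at last sites were 24.1 and 23.1 after CF Im25 siRNA, 32.4 and 30.1 with CF Im68 siRNA, 3.60 and 3.13 after CF Im59 siRNA, and 4.32 and 8.72 in scrambled siRNA against no siRNA. At 40 points they were 2.49 and 1.71 after CF Im25 siRNA, 7.31 and 5.47 with CF Im68 siRNA, 0 and 0.107 after CF Im59 siRNA, and 0 and 0 in scrambled siRNA against no siRNA. With TMM the totals were lower in 4.42 after CF Im68 siRNA and higher in 1.02 in scrambled siRNA against no siRNA, and with the median of ratios in 4.53 and 0.984.

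Some single units changed direction. With gaps of at most 2500 nt the changes were 3.53 points on chromosome 3 and −15.1 points on the plus strand of chromosome 12 after CF Im25 siRNA. They were −18.5 points on chromosome 16 and 9.11 points on the minus strand of chromosome 12 at 79981573 after CF Im68 siRNA, and 4.13 points on chromosome 17, 9.43 on chromosome 2, 0.608 on chromosome 5 and −6.64 on chromosome 1 after CF Im59 siRNA. With gaps up to 10000 nt the unit on chromosome 16 changed by −7.76 points after CF Im68 siRNA. With a threshold of 2 CPM, or with the 3 control libraries alone, the unit on the plus strand of chromosome 12 changed by −15.1 points, and at 2 CPM the one on chromosome 1 by −1.14 points after CF Im59 siRNA.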

Other observations

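Units of 4 or more sites were unevenly spread over the chromosomes. They made up 12.5% of the units of chromosome 12 (190 of 1517) and 12.4% of those of chromosome 17 (211 of 1695), against 7.05% on chromosome 7 (97 of 1376). Only 25 units were assigned to chromosome Y, none with 4 sites, which is too few for a comparison.

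The ends within a site were less concentrated in these units than in units of a single site. The highest nucleotide held a median of 62.4% of the reads of first sites, 60.1% of inner sites and 62.4% of last sites, against 72.4% in single-site units. Single-site units were also less abundant, at a median of 2.21 CPM, against 2.98 CPM at first, 3.61 CPM at inner and 3.68 CPM at last sites. The part of read number in this difference was not tested, and the share was not computed for units of 2 or 3 sites. Joining positions within 10 nt gave 3753 units of 4 or more sites, and within 50 nt 2612.

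The scrambled libraries of the different fragmentations had different main sites in many of these units. Of 2649 units tested, the main site lay upstream in the RNase I library in 517 and downstream in 429. Units of fewer sites were not compared in this way.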
